A study of Mus musculus with 13 samples.

Results

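The genes described here are 10 genes of invasion and epithelial-mesenchymal transition (EMT), out of 19938 genes with a probe set of their own on the array. They were chosen by name, as Mmp14, Cd44, Vim, Cdh1, Cdh2, Snai1, Snai2, Zeb1, Zeb2 and Fn1, and each was read from the probe set annotated to that symbol alone. Every one of them had exactly 1 such probe set, so no choice between probe sets was needed. Levels are log2 intensities, in which a step of 1 is a doubling, and levels of different genes are not set against each other because probe sets differ in brightness.

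The samples were enterocytes, the epithelial cells of the gut lining, of 129/SVJ mice with a gut-specific knockout of CKIalpha. CKIalpha is a kinase encoded by Csnk1a1 that primes beta-catenin, through which Wnt signals act, for degradation. The knockout was homozygous (KO) or heterozygous (Het), and the mice were crossed with p53 or p21 knockout animals. The 6 groups, with 2 arrays each that the labels call biological replicates, were CKIalpha KO/p53 KO, CKIalpha Het/p53 KO, CKIalpha KO/p21 KO, CKIalpha Het/p21 KO, CKIalpha KO and CKIalpha Het. All 6 groups therefore carried at least 1 knocked-out CKIalpha allele, and no wild-type group is among them. The labels give neither the promoter that drove the deletion nor the age of the mice. The 13th array is titled as the third CKIalpha KO/p53 KO replicate, whereas its genotype and source labels give a CKI knockout alone. It entered no main comparison and its values are given apart.

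In EMT, epithelial cells loosen their cadherin junctions and take on mesenchymal features, under transcription factors of the Snail and ZEB families that repress the E-cadherin gene Cdh1. Invading cells also need proteases that open the matrix, such as the membrane-anchored protease MMP14, and adhesion receptors such as CD44, which binds hyaluronan. In the gut epithelium, Cd44 is known as a target of Wnt signalling and as a gene of the crypt, while E-cadherin holds neighbouring enterocytes together.

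The labelled cell type was checked on marker lists. All 11 epithelial and enterocyte markers were above the array's median on all 13 arrays. Of markers of other cells, 6 of 13 fibroblast and smooth muscle genes, 6 of 10 lymphocyte genes, 4 of 11 myeloid genes and 0 of 9 endothelial genes were above the median on all 13 arrays. The fibroblast gene Lum and the endothelial gene Emcn were at or below the array's 25th percentile on all 13. The array medians lay between 4.96 and 5.12. Csnk1a1 lay between 10.44 and 10.80 on the 13 arrays, and since the labels do not say which exons were removed, this checks no genotype. The X-inactivation RNA Xist parted the replicate numbers, at 3.15 to 3.94 on the 6 arrays numbered 1 against 8.91 to 10.1 on the 6 numbered 2, so each group held 1 array of each kind.

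Promoter sequences are shown for Mmp14, Cd44 and Vim, the members that rose in CKIalpha KO/p53 KO, and for Snai1, an EMT factor that did not pass. Each is the 250 bases before an annotated start of the gene, 5′ to 3′ on the gene's strand, from RefSeq for GRCm38.p6. The windows are chr14:54431348-54431597 on the plus strand (Mmp14), chr2:102901666-102901915 on the minus strand (Cd44), chr2:13574061-13574310 on the plus strand (Vim) and chr2:167537945-167538194 on the plus strand (Snai1). The start used for Cd44 is not its outermost one, so the last 4 bases of that window lie inside the annotated gene. Capitals mark matches, on either strand, to 7 motifs: CACCTG, the E-box that Snail and ZEB factors bind, the TCF/LEF core as CTTTGA or CTTTGT, the AP-1 motif TGANTCA, the GC box GGGCGG, the TATA box TATAAA and the CCAAT box CCAAT.
Mmp14: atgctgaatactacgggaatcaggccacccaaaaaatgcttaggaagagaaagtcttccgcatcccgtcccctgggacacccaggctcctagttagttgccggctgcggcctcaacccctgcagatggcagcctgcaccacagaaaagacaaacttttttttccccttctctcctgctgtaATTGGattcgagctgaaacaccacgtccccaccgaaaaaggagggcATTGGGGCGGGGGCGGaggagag
Cd44: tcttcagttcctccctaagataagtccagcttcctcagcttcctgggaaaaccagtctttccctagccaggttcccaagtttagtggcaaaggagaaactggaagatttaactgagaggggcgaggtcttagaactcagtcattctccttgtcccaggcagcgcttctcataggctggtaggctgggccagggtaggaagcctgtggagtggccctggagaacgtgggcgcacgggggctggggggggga
Vim: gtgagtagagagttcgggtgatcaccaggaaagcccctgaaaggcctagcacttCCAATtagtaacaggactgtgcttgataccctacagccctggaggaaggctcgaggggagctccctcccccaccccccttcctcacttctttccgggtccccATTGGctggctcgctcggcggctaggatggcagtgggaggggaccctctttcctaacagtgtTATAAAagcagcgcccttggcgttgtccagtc
Snai1: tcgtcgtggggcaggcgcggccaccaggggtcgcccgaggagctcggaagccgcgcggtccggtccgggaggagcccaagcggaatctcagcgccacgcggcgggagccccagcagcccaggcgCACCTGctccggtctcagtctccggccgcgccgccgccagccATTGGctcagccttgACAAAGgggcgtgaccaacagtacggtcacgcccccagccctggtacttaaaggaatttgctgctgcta

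The Mmp14 window held GC boxes at -19 and -13 and CCAAT boxes at -69 and -23, counted from the start used to the first base of the match. The CCAAT match at -23 and the GC box at -19 share a base. In the Vim window a TATA box lay at -32 and CCAAT boxes at -196 and -94. The Snai1 window held the Snail and ZEB E-box at -126, a CTTTGT match at -69 and a CCAAT box at -84. None of the 7 motifs was found in these 250 bases of Cd44. Among 32851 windows of the same length, 17.2% held the E-box, 13.8% CTTTGA, 16.5% CTTTGT, 6.75% the AP-1 motif, 32.7% the GC box, 12.4% the TATA box and 33.8% the CCAAT box. Such letters are a description of the window and not evidence of binding. Windows were found for 5 of the 10 members, these 4 and Zeb2.

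Mmp14 and Cd44, the protease and the hyaluronan receptor, were higher on all 6 CKIalpha KO arrays than on all 6 CKIalpha Het arrays, whatever the second knockout. For Mmp14 the lowest KO array stood at 6.87 and the highest Het array at 6.61. For Cd44 these values were 7.05 and 6.87. Of all 16721 tested genes, 3.74% separated the 12 arrays in this direction and 1.96% in the opposite one. The other 6 tested members did not separate them in either direction. In whole enterocyte preparations, more cells that express a gene and more RNA per cell cannot be told apart.

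Mmp14 had log2 values of 8.53 and 8.66 in CKIalpha KO/p53 KO, against 6.61 and 6.47 in CKIalpha Het/p53 KO. In CKIalpha KO/p21 KO it had 6.87 and 8.21, against 6.49 and 5.94 in CKIalpha Het/p21 KO. In CKIalpha KO it had 7.12 and 7.78, against 6.56 and 6.52 in CKIalpha Het. The KO/p53 KO arrays were thus the highest of the 12 and stood close together, whereas the KO/p21 KO arrays differed by 1.34. In the order of group means, CKIalpha KO/p53 KO stood 1.06 above CKIalpha KO/p21 KO with no overlap of arrays. CKIalpha KO/p21 KO and CKIalpha KO overlapped, and CKIalpha KO stood 0.91 above CKIalpha Het without overlap. The 3 Het groups overlapped with their neighbours in the order.

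The difference for Mmp14 was largest without p53, at 2.06 ± 0.38 on the log2 scale (4.17-fold higher, SE of the limma fit, n = 2 per group, adjusted p = 0.0102). It was 1.32 ± 0.38 without p21 (2.50-fold, adjusted p = 0.0840 by limma) and 0.91 ± 0.38 with p53 and p21 present (1.88-fold, adjusted p = 0.509), and neither passed the threshold of 0.05. Averaged over the 3 backgrounds, Mmp14 rose by 1.43 ± 0.22 (2.70-fold, limma adjusted p = 0.00292), and this call held in all 19 alternatives, at 1.21 to 1.65. The call without p53 was lost without CKIalpha Het/p53 KO replicate 1 (adjusted p = 0.0651), without its replicate 2 (0.0587) and without CKIalpha KO/p53 KO replicate 2 (0.0633). Without CKIalpha KO/p21 KO replicate 1, the difference without p21 was 1.99 and passed (limma adjusted p = 0.00343), and without replicate 2 it was 0.65 (adjusted p = 0.520).

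Cd44 had log2 values of 9.56 and 9.05 in CKIalpha KO/p53 KO, against 6.41 and 6.36 in CKIalpha Het/p53 KO. Without p21 it had 8.42 and 9.94 in CKIalpha KO/p21 KO, against 6.87 and 6.09 in CKIalpha Het/p21 KO. With both genes present it had 7.05 and 8.91 in CKIalpha KO, against 6.54 and 6.60 in CKIalpha Het. The highest single array was thus a KO/p21 KO array, and within each background the KO and Het arrays did not overlap. The replicates of CKIalpha KO differed by 1.85, and replicate 1 of that group lay just above the highest Het array. In the order of group means the 3 KO groups overlapped with their neighbours, as did the 3 Het groups.

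The difference for Cd44 was 2.92 ± 0.59 without p53 (7.57-fold higher, n = 2 per group, limma adjusted p = 0.0133), and it passed. Without p21 it was of similar size, 2.70 ± 0.59 (6.51-fold), at an adjusted p of 0.0508 by limma. With p53 and p21 present it was 1.41 ± 0.59 (2.65-fold, adjusted p = 0.511 by limma), with 2.33 without CKIalpha KO replicate 1 and 0.48 without its replicate 2, neither of which passed. Averaged over the 3 backgrounds, Cd44 rose by 2.34 ± 0.34 (5.07-fold, limma adjusted p = 0.00263), with values of 2.03 to 2.65 over the 19 alternatives, all of which passed. The call without p53 was lost when any of the 4 arrays of that background was left out: the adjusted p was 0.0624 without CKIalpha KO/p53 KO replicate 1, 0.0607 without its replicate 2, 0.0755 without CKIalpha Het/p53 KO replicate 1 and 0.0675 without its replicate 2. The difference without p21 was 3.46 without CKIalpha KO/p21 KO replicate 1, where it passed, and 1.94 without its replicate 2, where it did not. It also passed where 1 of the 2 CKIalpha KO arrays was left out, a group outside this comparison. There the difference stayed at 2.70, while the SE, which is pooled over groups, fell to 0.45.

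Vim encodes vimentin, an intermediate filament protein of mesenchymal cells and leukocytes that is commonly read as an EMT marker. It had log2 values of 8.79 and 9.06 in CKIalpha KO/p53 KO, against 7.17 and 7.79 in CKIalpha Het/p53 KO. The p21 background gave 8.35 and 6.86 in CKIalpha KO/p21 KO, against 8.35 and 8.68 in CKIalpha Het/p21 KO. In CKIalpha KO it had 7.82 and 7.50, against 7.58 and 8.36 in CKIalpha Het. The KO/p53 KO arrays were the highest of the 12, and this was the only background of the 3 in which the KO arrays lay above the Het arrays. The next group in the order of means was CKIalpha Het/p21 KO, 0.41 lower and without overlap.

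Without p53, Vim was higher by 1.45 ± 0.44 (2.73-fold, n = 2 per group, limma adjusted p = 0.0473). Without p21 the difference was -0.91 ± 0.44 (limma adjusted p = 0.248), with both genes present it was -0.31 ± 0.44 (adjusted p = 0.902), and the average over the backgrounds was 0.07 ± 0.25. The difference without p53 passed in 5 of 19 alternatives. It was lost with no filter on dim genes (limma adjusted p = 0.0555), after a further quantile normalization (0.0696), with the replicate number as a block (0.0601), with the 13th array placed in CKIalpha KO/p53 KO as titled (0.97, adjusted p = 0.211) and without any 1 of 10 of the 12 arrays. It held where 1 of the 2 CKIalpha KO/p21 KO arrays was left out, a group outside this comparison. There the difference stayed at 1.45, while the SE, which is pooled over groups, fell to 0.29. In the p21 background the Vim difference was -1.66 without CKIalpha KO/p21 KO replicate 1 and -0.16 without its replicate 2.

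**Figure D1:**
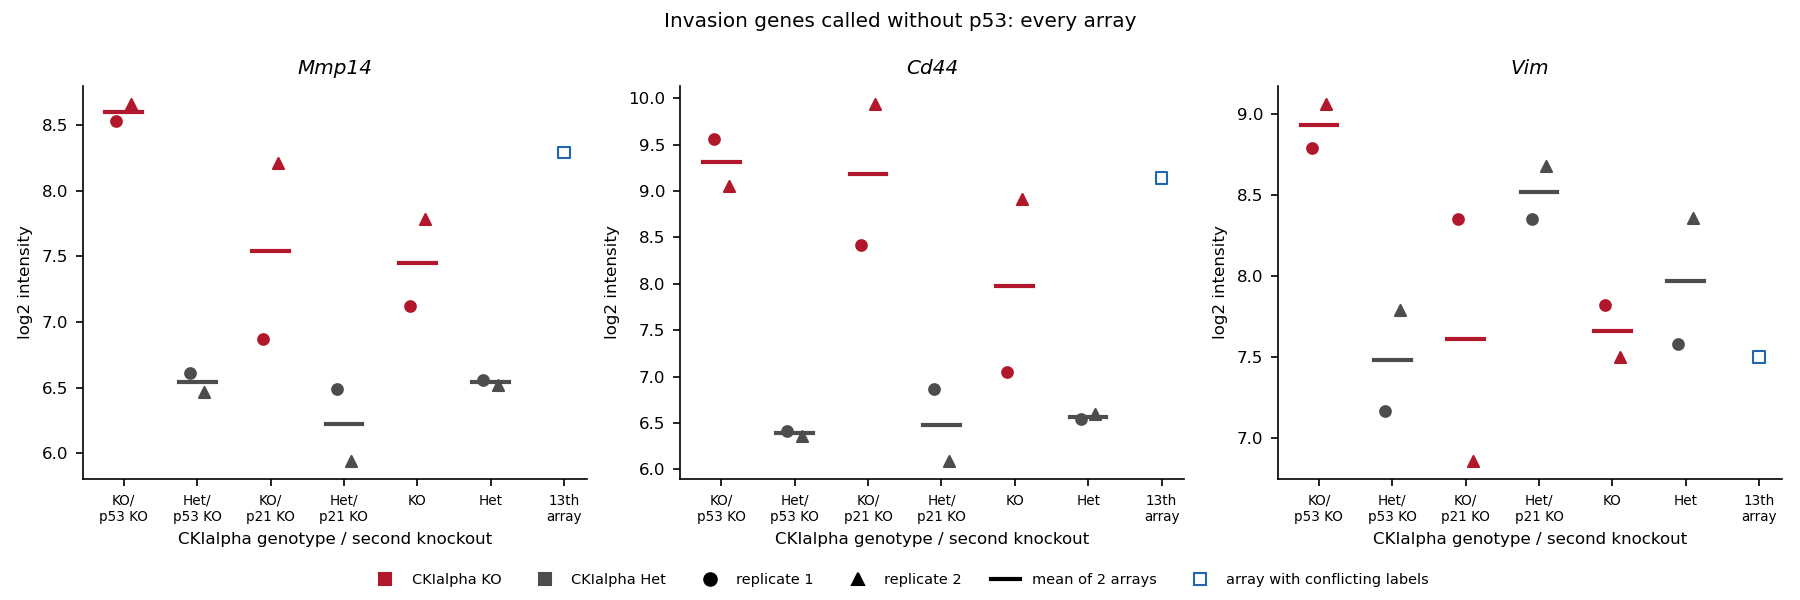
Log2 intensity (vertical axis) of Mmp14, Cd44 and Vim on each array, by genotype group; circles and triangles are replicates 1 and 2, bars the mean of 2 arrays and open squares the 13th array. All 6 red CKIalpha KO points lie above all 6 grey CKIalpha Het points for Mmp14 and Cd44, whereas Vim is highest in CKIalpha KO/p53 KO and has lower means in KO than in Het mice in the other backgrounds.

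Of the 8 members tested, 3 rose and 0 fell without p53, in a comparison in which limma called 17.8% of all 16721 tested genes, 1841 as higher and 1140 as lower. Without p21, 0 of 8 were called by limma, beside 1.97% of all genes. With p53 and p21 present, 0 of 8 were called, beside 0.0239%. In these last 2 comparisons 3 and 2 members had an unadjusted p under 0.05 by limma, beside 3881 and 1520 of all tested genes. The average effect called 2 of 8 as higher and 0 as lower, beside 24.4% of all genes, 2585 as higher and 1499 as lower. The KO and Het arrays did not overlap for 4 of 8 members without p53 (Mmp14, Cd44, Vim and Cdh1), beside 64.6% of all tested genes. Without p21 this held for 4 (Mmp14, Cd44, Snai1 and Zeb1), beside 51.2%, and with both genes for 2 (Mmp14 and Cd44), beside 39.1%. These shares of members were thus no higher than those of all genes. The median log2 difference of the members was 0.28 without p53, -0.14 without p21 and 0.05 with both genes, and that of all tested genes -0.06, -0.01 and 0.02.

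Whether the CKIalpha effect differed between backgrounds was tested directly. Set against the mice with both genes, the effect without p53 was larger by 1.15 ± 0.54 for Mmp14 (limma adjusted p = 0.352), by 1.51 ± 0.84 for Cd44 (adjusted p = 0.416) and by 1.76 ± 0.62 for Vim (adjusted p = 0.266). By limma, 0 of 8 members passed, beside 0.0179% of all genes. Limma gave an unadjusted p under 0.05 for 1 member, Vim, and for 2485 of all 16721 tested genes. The effect without p21 was larger by 0.41 ± 0.54 for Mmp14 and by 1.30 ± 0.84 for Cd44 (limma adjusted p = 0.866 and 0.707), with 0 of 8 members called, beside 0% of all genes, and 0 at an unadjusted p under 0.05. In a comparison chosen after the values were seen, the Vim effect without p53 exceeded that without p21 by 2.36 ± 0.62, with an unadjusted p of 0.00356 and an adjusted p of 0.386 by limma. There 0 of 8 members were called, beside 0.0120% of all genes. The 3 members called without p53 were therefore not shown to respond differently there than in the other backgrounds.

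Within CKIalpha KO mice, the added loss of p53 was set against p53 and p21 both present. Mmp14 was higher in CKIalpha KO/p53 KO than in CKIalpha KO by 1.15 ± 0.38 (limma adjusted p = 0.123), Cd44 by 1.33 ± 0.59 (adjusted p = 0.223) and Vim by 1.27 ± 0.44 (adjusted p = 0.133), with 0 of 8 members called beside 0.694% of all genes. Of the 8, 4 had an unadjusted p under 0.05 by limma, these 3 and Snai1, as did 3727 of all 16721 tested genes. Mmp14 and Vim passed only where 1 of the 2 CKIalpha KO/p21 KO arrays was left out, a group outside this comparison. There the differences stayed at 1.15 and 1.27, while the SE, which is pooled over groups, fell to 0.24 and 0.29. Over the 19 alternatives the differences were 0.82 to 1.48 for Mmp14 and 0.79 to 1.42 for Vim. In CKIalpha KO/p21 KO against CKIalpha KO, 0 of 8 were called, beside 0.0359% of all genes, and 0 had an unadjusted p under 0.05 by limma, and Cd44 differed by 1.20 ± 0.59 and Mmp14 by 0.09 ± 0.38.

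Between the 2 double knockouts, CKIalpha KO/p53 KO exceeded CKIalpha KO/p21 KO by 1.06 ± 0.38 for Mmp14 (limma adjusted p = 0.432) and 1.32 ± 0.44 for Vim (adjusted p = 0.379), and by 0.12 ± 0.59 for Cd44 (adjusted p = 0.981). By limma, 0 of 8 members were called, beside 0.329% of all genes. Limma gave an unadjusted p under 0.05 for 3 members and for 1507 of all 16721 tested genes. Without CKIalpha KO/p21 KO replicate 2, Mmp14 passed (1.73, limma adjusted p = 0.0244), and without replicate 1 of that group its difference was 0.39 (adjusted p = 0.828).

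With 1 CKIalpha allele left, loss of p53 or p21 moved no member past the threshold. In CKIalpha Het/p53 KO against CKIalpha Het, Mmp14 differed by 0.00 ± 0.38, Cd44 by -0.19 ± 0.59 and Vim by -0.49 ± 0.44. In CKIalpha Het/p21 KO against CKIalpha Het, the differences were -0.32 ± 0.38, -0.09 ± 0.59 and 0.55 ± 0.44 for the same genes. In both comparisons 0 of 8 members were called, beside 0% of all genes without p53 and 0.00598% without p21. By limma, 0 of 8 had an unadjusted p under 0.05, and 941 and 837 of all tested genes did.

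**Figure D2:**
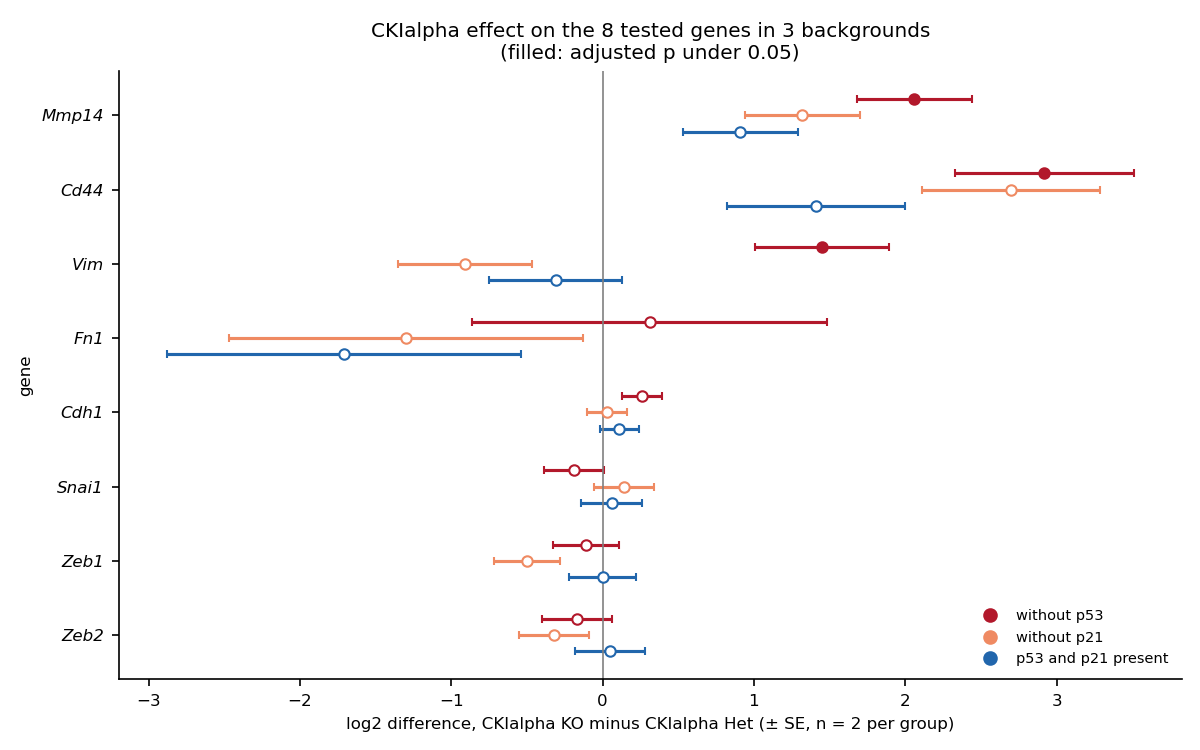
Log2 difference, CKIalpha KO minus CKIalpha Het (horizontal axis, ± SE of the limma fit, n = 2 per group), of the 8 tested genes without p53, without p21 and with both genes present; filled points have an adjusted p under 0.05. Mmp14 and Cd44 lie above 0 in all 3 backgrounds, Vim only without p53, and the SE of Fn1, 1.17, is the widest.

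Fn1 encodes fibronectin, a matrix glycoprotein made by mesenchymal cells and by cells in EMT. It had log2 values of 5.78 and 4.49 in CKIalpha KO/p53 KO, against 5.22 and 4.45 in CKIalpha Het/p53 KO. Its values were 6.36 and 4.80 in CKIalpha KO/p21 KO, against 8.32 and 5.44 in CKIalpha Het/p21 KO. It had 5.28 and 4.92 in CKIalpha KO, against 4.98 and 8.64 in CKIalpha Het. Single Het arrays, 1 in each of the groups CKIalpha Het/p21 KO and CKIalpha Het, thus stood far above the rest, and in every background the KO and Het arrays overlapped. The differences were 0.31 ± 1.17 without p53, -1.30 ± 1.17 without p21 and -1.71 ± 1.17 with both genes (limma adjusted p = 0.874, 0.578 and 0.739). The last value was 0.12 without CKIalpha Het replicate 2, and the value without p21 was 0.14 without CKIalpha Het/p21 KO replicate 1.

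Of the cadherin genes, Cdh1 passed in no comparison and Cdh2 was too dim to be tested. Cdh1, the E-cadherin gene, had log2 values of 11.28 and 11.21 in CKIalpha KO/p53 KO, against 11.01 and 10.98 in CKIalpha Het/p53 KO. In CKIalpha KO/p21 KO it had 11.18 and 11.36, against 11.20 and 11.28 in CKIalpha Het/p21 KO, and in CKIalpha KO 11.15 and 10.97, against 10.88 and 11.02 in CKIalpha Het. Over the 12 arrays it spanned 0.48, the narrowest span of the 8 tested members. Its difference without p53 was 0.26 ± 0.13 (1.19-fold higher, limma adjusted p = 0.197), with no overlap between the KO and Het arrays of that background. Without p21 it was 0.03 ± 0.13 and with both genes 0.11 ± 0.13.

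Cdh2 encodes N-cadherin, the cadherin of neural and mesenchymal cells. It lay between 3.30 and 3.43 on the 6 CKIalpha KO arrays and between 3.38 and 3.65 on the 6 CKIalpha Het arrays. Only 1 of the 12 arrays exceeded its own 25th percentile, so Cdh2 missed the filter of 2 arrays and was not tested.

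Among the EMT transcription factors, Snai1, which encodes Snail, had log2 values of 5.17 and 5.40 in CKIalpha KO/p53 KO, against 5.15 and 5.79 in CKIalpha Het/p53 KO. In CKIalpha KO/p21 KO it had 5.76 and 5.80, against 5.64 and 5.63 in CKIalpha Het/p21 KO. In CKIalpha KO it had 5.84 and 5.75, against 5.64 and 5.84 in CKIalpha Het. The 3 lowest arrays were both KO/p53 KO arrays and 1 Het/p53 KO array. The CKIalpha effect was -0.19 ± 0.20 without p53, 0.14 ± 0.20 without p21 and 0.06 ± 0.20 with both genes, and none passed. With p53 loss added, in CKIalpha KO/p53 KO against CKIalpha KO, Snai1 differed by -0.51 ± 0.20 (limma adjusted p = 0.165). That was the opposite sign to Mmp14, Cd44 and Vim in that comparison.

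Zeb1, a repressor of E-cadherin, had log2 values of 5.26 and 4.72 in CKIalpha KO/p53 KO, against 5.03 and 5.18 in CKIalpha Het/p53 KO. In CKIalpha KO/p21 KO it had 5.18 and 4.69, against 5.26 and 5.61 in CKIalpha Het/p21 KO. In CKIalpha KO it had 5.35 and 5.18, against 5.18 and 5.36 in CKIalpha Het. The arrays of KO and Het mice parted only without p21, where the difference was -0.50 ± 0.22 (limma unadjusted p = 0.0496, adjusted p = 0.214). Without p53 it was -0.11 ± 0.22.

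The related repressor Zeb2 lay between 3.85 and 4.59 on the 6 CKIalpha KO arrays and between 4.07 and 4.57 on the 6 CKIalpha Het arrays, below the array's median on all 13. Its differences were -0.17 ± 0.23 without p53, -0.32 ± 0.23 without p21 and 0.05 ± 0.23 with both genes. Snai2, which encodes Slug, lay between 3.34 and 3.47 on the 6 KO arrays and between 3.38 and 3.78 on the 6 Het arrays. Like Cdh2 it exceeded the 25th percentile on 1 of 12 arrays and was not tested. Values identical in every deposited digit recurred: Snai2 stood at 3.46 and Zeb2 at 4.15 on 5 of the 13 arrays each, and Zeb1 at 5.18 on 4. A value identical in this sense on at least 4 arrays was found for 2195 of the 19938 genes.

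**Figure D3:**
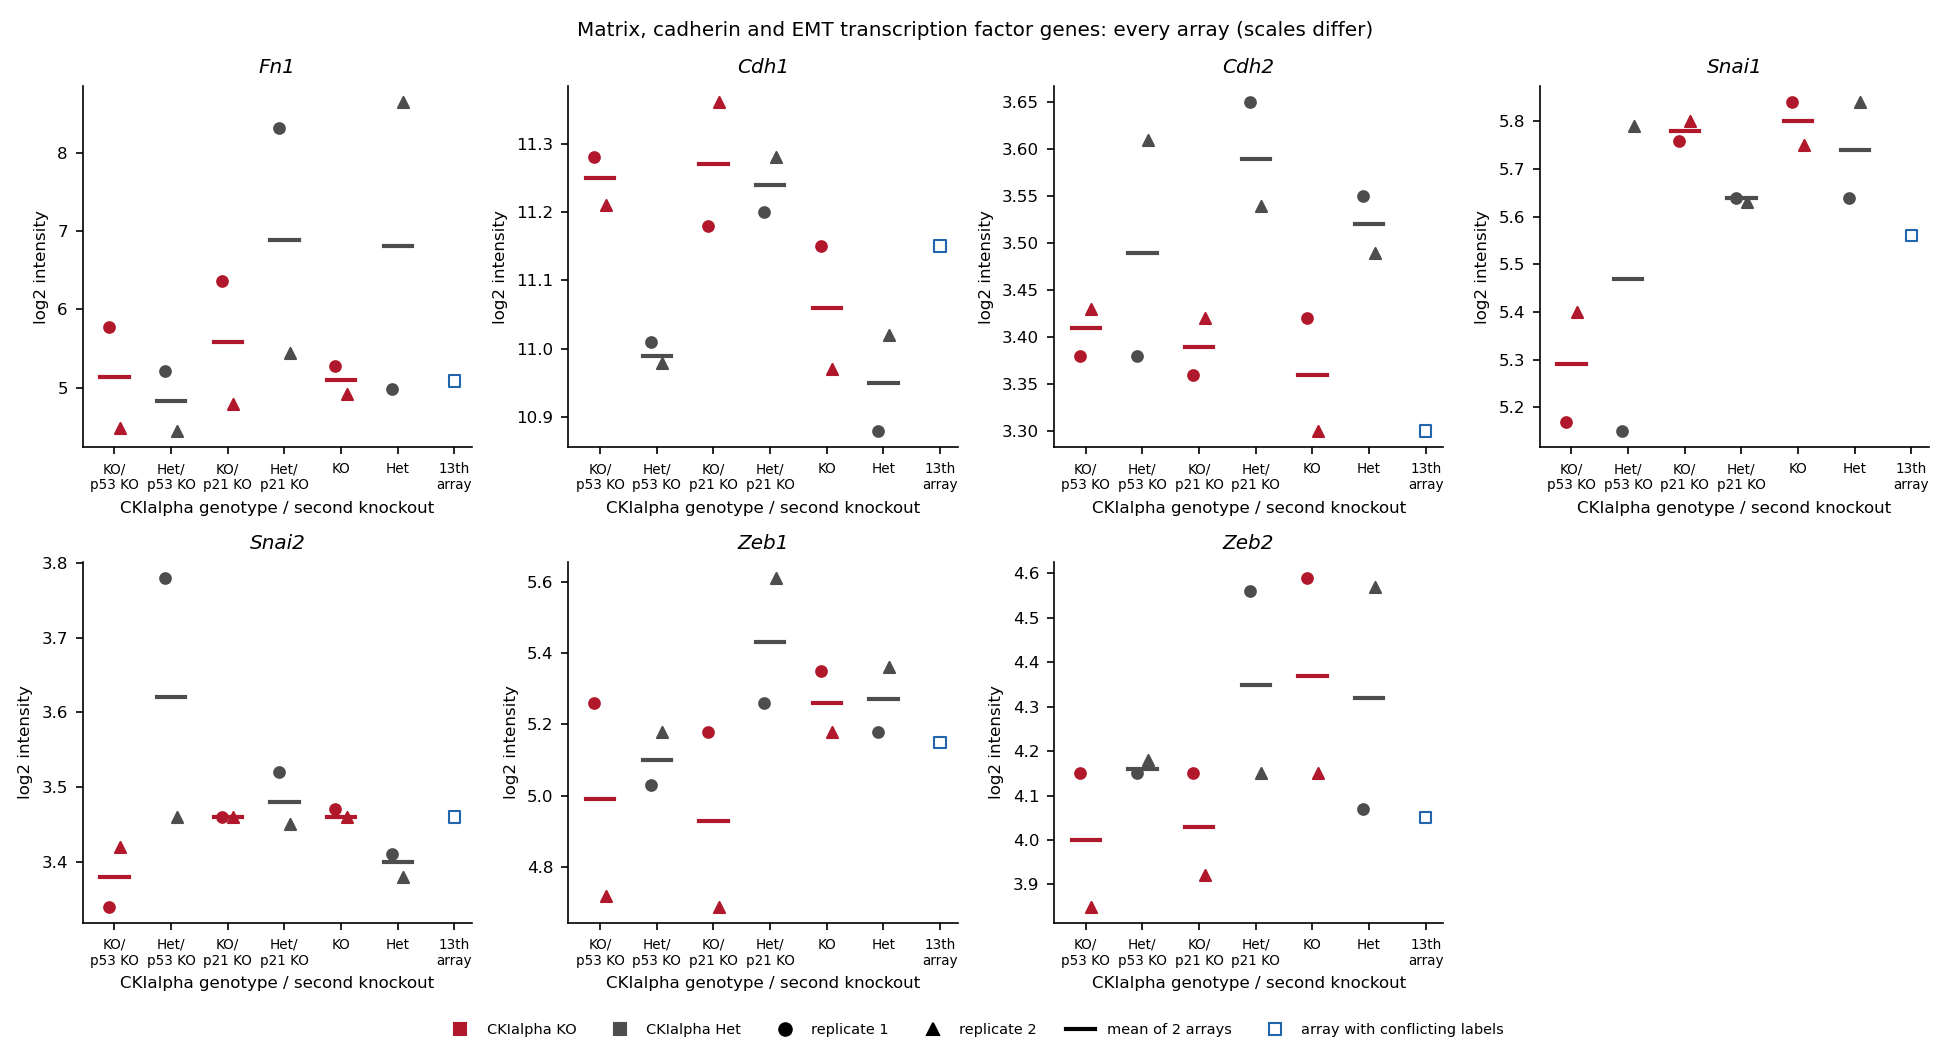
Log2 intensity (vertical axis, scaled separately for each gene) of Fn1, the cadherin genes Cdh1 and Cdh2 and the EMT transcription factor genes on each array, by genotype group; symbols are replicates, bars the mean of 2 arrays and open squares the 13th array. Fn1 is set apart by single Het arrays at 8.32 and 8.64, Cdh1 stays within 10.88 to 11.36, and Cdh2 and Snai2 reach no more than 3.65 and 3.78.

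Vimentin and fibronectin are also made by cells other than enterocytes, so markers of such cells were read on the same arrays as the mean log2 level of each list. Fibroblast and smooth muscle markers stood at 4.96 and 4.92 in CKIalpha KO/p53 KO, against 4.92 and 4.92 in CKIalpha Het/p53 KO. Lymphocyte markers stood at 7.02 and 5.96 in CKIalpha KO/p53 KO, against 6.23 and 7.21 in CKIalpha Het/p53 KO, and myeloid markers at 5.40 and 5.05, against 4.95 and 5.24. For these lists the KO and Het ranges thus met or overlapped where Vim did not. Of the tested markers, 0 of 12 fibroblast and 0 of 10 lymphocyte genes were called by limma without p53, with 1 of each at an unadjusted p under 0.05, while 2 of 11 myeloid genes rose, Cd68 (0.89 ± 0.17) and Cd14 (0.81 ± 0.20), with a list median of 0.00. The fibroblast markers had a median difference of -0.14, with 9 of 12 below 0, beside -0.06 for all tested genes. Among them the proteoglycan gene Dcn had 7.34 and 6.79 in CKIalpha KO/p53 KO, against 5.32 and 4.45 in CKIalpha Het/p53 KO (2.19 ± 0.92, limma adjusted p = 0.124). The part of these cells in the Vim difference was not tested.

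Without p21, the array with the lowest Vim value, CKIalpha KO/p21 KO replicate 2 (6.86), also had the lowest means of fibroblast markers (4.83) and of lymphocyte markers (5.66) of the 13 arrays. In that comparison the median differences were -0.55 for 12 fibroblast and -1.38 for 10 lymphocyte markers, beside -0.01 for all tested genes. By limma 0 of either list were called, while 0 of 12 fibroblast and 10 of 10 lymphocyte markers had an unadjusted p under 0.05, as did 3881 of all 16721 tested genes. CKIalpha Het/p21 KO replicate 2 had the highest means of both lists, 6.32 and 7.73, and the highest Vim value among the Het arrays, 8.68. By contrast, the array with the highest Vim value, CKIalpha KO/p53 KO replicate 2 (9.06), had a fibroblast mean of 4.92 and a lymphocyte mean of 5.96. For Fn1, the arrays at 8.32 and 8.64 had fibroblast means of 5.43 and 5.31, and the array at 6.36 had one of 5.57. The arrays with the lowest Fn1 values, 4.45, 4.49 and 4.80, had fibroblast means of 4.92, 4.92 and 4.83, among the 4 lowest of the 12 arrays. On the array with the highest fibroblast mean, 6.32, Fn1 was at 5.44. The part of these cells in the Vim and Fn1 values was not tested. The epithelial and enterocyte markers had a median difference of -0.49 without p53, with Sis and Vil1 lower and Krt18 higher, beside -0.06 for all tested genes.

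**Figure D4:**
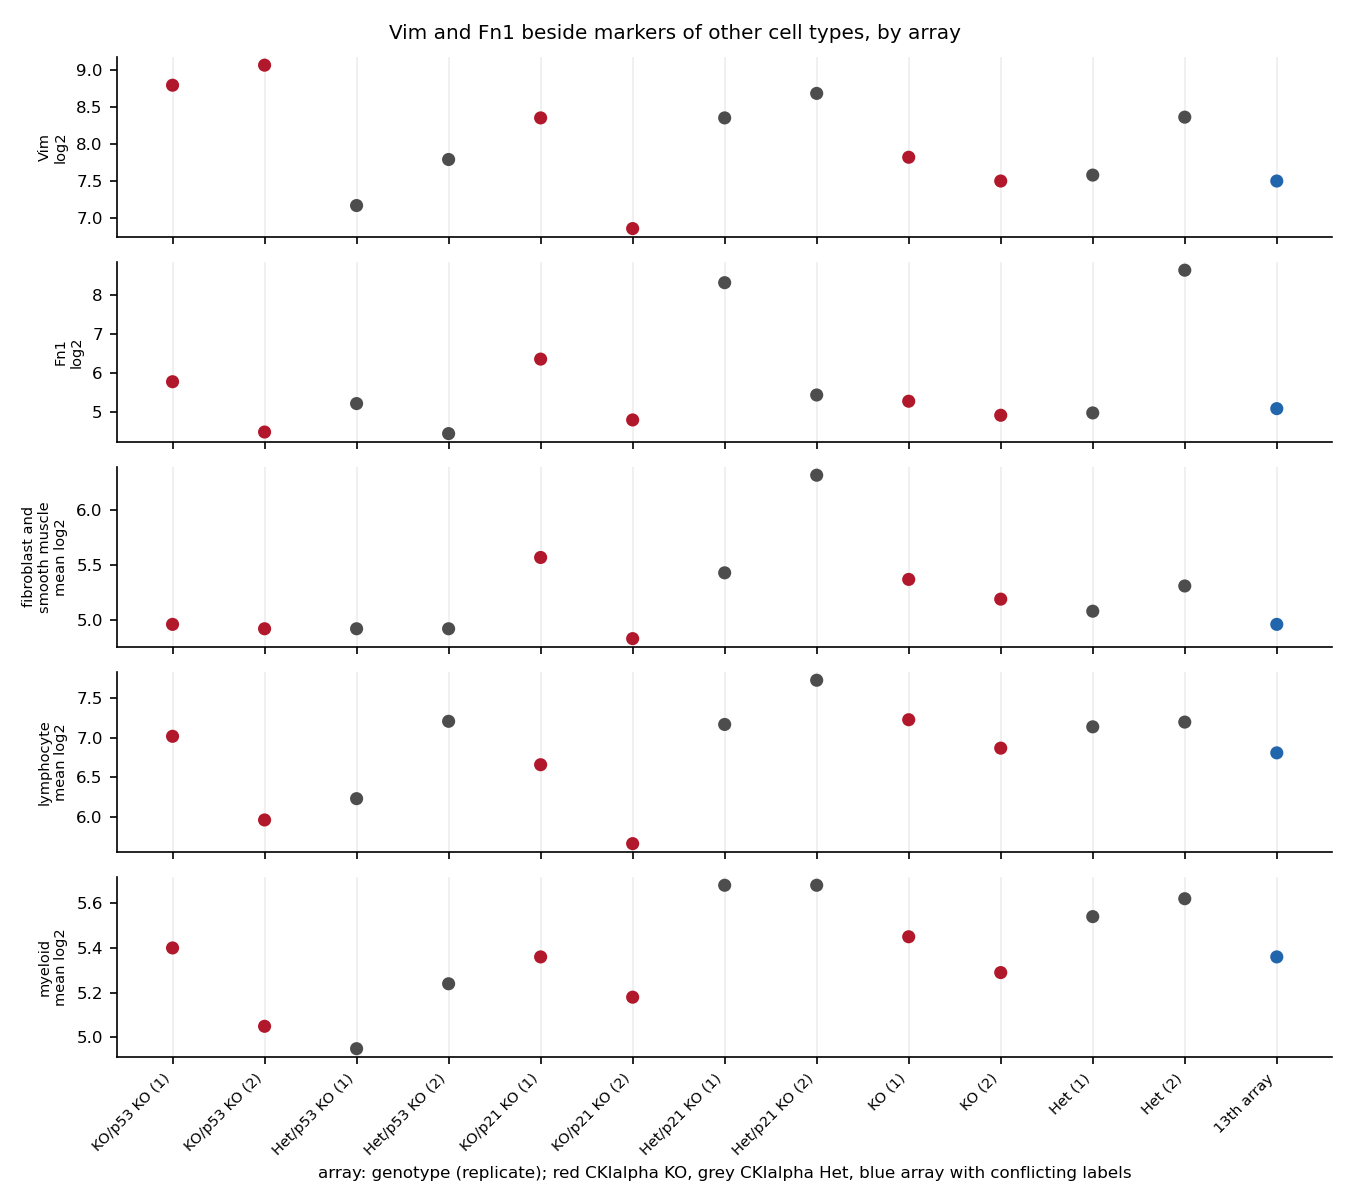
Log2 intensity of Vim and Fn1 and the mean log2 intensity of fibroblast and smooth muscle, lymphocyte and myeloid markers (vertical axes) on each of the 13 arrays, with CKIalpha KO arrays in red, CKIalpha Het arrays in grey and the 13th array in blue. Vim is high on both CKIalpha KO/p53 KO arrays, where the fibroblast mean is 4.96 and 4.92, and low on CKIalpha KO/p21 KO replicate 2, where both the fibroblast and the lymphocyte mean are lowest.

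Other genes of invasion and EMT were followed in 7 lists, without p53 unless another background is named. The called share was between 5.88% and 33.3% in the 7 lists, beside 17.8% of all tested genes. Of 18 tested matrix proteases and inhibitors, 4 rose and 0 fell (22.2%), with a median of 0.08 beside -0.06 for all genes. Plat, tissue plasminogen activator, had 8.16 and 9.26 in CKIalpha KO/p53 KO, against 4.45 and 4.49 in CKIalpha Het/p53 KO (4.24 ± 0.46, 18.9-fold, limma adjusted p = 0.00427). Its values in CKIalpha KO/p21 KO, 5.09 and 6.33, and in CKIalpha KO, 4.59 and 5.47, lay well below those. The matrix metalloprotease gene Mmp7 rose by 2.73 ± 0.54, the lysosomal protease gene Ctsl by 1.89 ± 0.45 and the urokinase receptor gene Plaur by 1.58 ± 0.38. Mmp7, Ctsl and Plat were among the 4 called in the average effect (22.2% of the list, beside 24.4% of all tested genes). Plat differed by 0.87 ± 0.46 without p21 and by 0.38 ± 0.46 with both genes, and neither passed.

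Of 12 further EMT transcription factors, 2 rose and 2 fell, with a median of -0.06 equal to that of all genes. Tcf4, an E-box-binding factor, rose by 1.07 ± 0.18 and Sox9, a factor of the crypt base, by 1.77 ± 0.53. The mesenchymal homeobox gene Prrx1 had 5.52 and 5.36 in CKIalpha KO/p53 KO, against 6.29 and 6.63 in CKIalpha Het/p53 KO, and fell by 1.02 (SE 0.22, limma adjusted p = 0.0155). Its values were 5.37 and 4.70 in CKIalpha KO/p21 KO, 5.44 and 5.50 in CKIalpha Het/p21 KO, 5.65 and 5.38 in CKIalpha KO and 5.53 and 5.73 in CKIalpha Het. The CKIalpha Het/p53 KO arrays were thus the highest of the 12. Twist2 fell by 0.58 (SE 0.17, limma adjusted p = 0.0459). Of 17 genes of the mesenchymal matrix and cytoskeleton, 0 rose and 1 fell, the matrix glycoprotein gene Fbln1 (-1.55 ± 0.29), with a median of -0.01 and 9 below 0. Next in p were S100a6 at 1.41 ± 0.46, Lama5 at 0.85 ± 0.37 and Tpm1 at 0.32 ± 0.17 (limma adjusted p = 0.0614, 0.136 and 0.201). In the average effect 1 of the 17 rose, Lama5 (0.98 ± 0.21), and 1 fell, Fbln1 (-1.04 ± 0.17). That was 11.8% of the list, beside 24.4% of all tested genes.

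On the epithelial side, 1 of 15 identity genes and EMT repressors rose, the keratin gene Krt18 (1.74 ± 0.51), and 0 fell, with a median of 0.25. Next in p were Grhl1 at 0.64 ± 0.22, Klf4 at -0.94 ± 0.34 and Esrp2 at 0.59 ± 0.22 (limma adjusted p = 0.0722, 0.0829 and 0.0908). Esrp2 encodes a splicing factor that maintains epithelial isoforms. In the average effect 2 of these 15 rose and 2 fell (26.7%, beside 24.4% of all tested genes), with Klf4 at -0.76 ± 0.20 among those that fell. Of 21 junction genes 2 rose and 1 fell without p53, with a median of -0.01. The claudin gene Cldn2 rose by 2.26 ± 0.35 and the plakophilin gene Pkp2 by 0.56 ± 0.16, while the claudin gene Cldn15 fell by 1.76 (SE 0.25). Cldn2 also rose without p21, by 2.13 ± 0.35 (limma adjusted p = 0.0330). It was the only gene of these 7 lists called in that comparison, which called 1.97% of all tested genes. With p53 and p21 present, 0 genes of these lists were called by limma, beside 0.0239% of all tested genes. There 0 to 4 genes of a list had an unadjusted p under 0.05 by limma, as did 1520 of all 16721 tested genes.

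Of 14 integrins and CD44 partners, 1 rose without p53, Itga2, the collagen-binding integrin subunit alpha 2. It had 8.98 and 8.80 in CKIalpha KO/p53 KO, against 7.43 and 7.23 in CKIalpha Het/p53 KO (1.56 ± 0.20, limma adjusted p = 0.00526). Its difference was 0.74 ± 0.20 without p21 and 1.07 ± 0.20 with both genes, and neither passed (limma adjusted p = 0.0718 and 0.118). In the average effect Itga2 rose by 1.13 ± 0.11 (limma adjusted p = 0.00147). Hmmr, another hyaluronan receptor, was at 1.03 ± 0.33 (adjusted p = 0.0591 by limma), and Ezr, which encodes the linker ezrin that CD44 binds, at -0.58 ± 0.19 (adjusted p = 0.0606 by limma). In the average effect 5 of these 14 rose and 0 fell, in a comparison that called 24.4% of all genes in either direction. The hyaluronan synthase gene Has2 and the ligand gene Hgf were at or below the 25th percentile on all 13 arrays.

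Of 14 genes of the TGF-beta pathway, a known inducer of EMT, 2 rose and 1 fell (21.4%, beside 17.8% of all genes), with a median of 0.11. The type II receptor gene Tgfbr2 had 8.85 and 9.01 in CKIalpha KO/p53 KO, against 5.53 and 6.15 in CKIalpha Het/p53 KO (3.09 ± 0.48, 8.51-fold, limma adjusted p = 0.00771). The type I receptor gene Tgfbr1 rose by 0.68 ± 0.15, and the inhibitory Smad7 fell by 0.75 (SE 0.18). In the other backgrounds Tgfbr2 had 7.45 and 8.32 in CKIalpha KO/p21 KO, against 6.78 and 6.84 in CKIalpha Het/p21 KO, and 6.86 and 8.60 in CKIalpha KO, against 6.18 and 6.36 in CKIalpha Het. Neither difference passed. The KO arrays lay above the Het arrays in both. Of all tested genes, 51.2% without p21 and 39.1% with both genes had no overlap of arrays, in either direction.

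**Figure D5:**
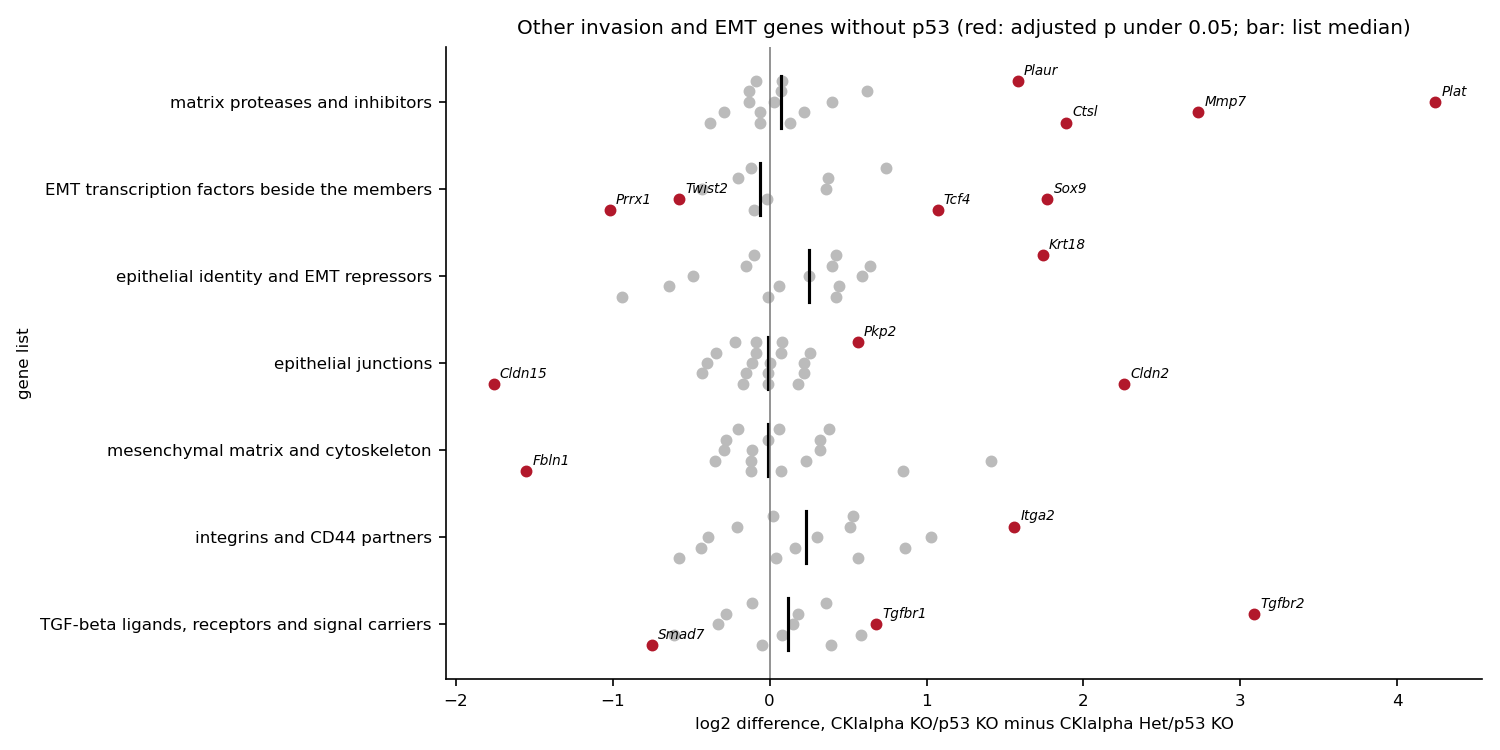
Log2 difference, CKIalpha KO/p53 KO minus CKIalpha Het/p53 KO (horizontal axis), of each tested gene in 7 lists of invasion and EMT genes; red points have a limma adjusted p under 0.05 and are named, and black bars are list medians. The called genes include Plat at 4.24 and Tgfbr2 at 3.09, while all 7 medians lie between -0.06 and 0.25.

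As a description of arrays that share the 6 groups, genes were ranked by Pearson's r with the members over the 12 arrays. The most alike genes were taken from tested genes without predicted-gene, Riken or accession symbols. For Mmp14 these were Prkci (r = 0.983), Usp24 (0.975) and Ro60 (0.973), and for Cd44 they were Nifk (0.990), Srsf9 (0.986) and Hunk (0.984). Mmp14 and Cd44 themselves had r = 0.918. Vim was most like Emb (0.906), Myo5a (0.832) and Smap2 (0.788), and Fn1 was most like Lgals1 (0.904), C1s1 (0.897) and Hsd3b3 (0.867). Vim had r = 0.094 with Mmp14 and 0.018 with Cd44 over the same arrays.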

How the data were processed

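The deposited values were log2 intensities of 35556 probe sets on 13 arrays. Per the labels' protocols, the authors extracted them with Affymetrix Expression Console 1.1 by the RMA Sketch method and normalized them by the median intensities. The base of the logarithm was read from the values. Gene symbols came from the platform annotation, in which 21789 probe sets had 1 symbol, 1621 several and 12146 none. Of 999 genes with more than 1 probe set, the one with the highest mean was used. Genes above the array's 25th percentile on at least 2 of 12 arrays were tested (16721 of 19938).

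A limma model (version 3.58.1, R 4.3.3) covered the 12 arrays, with a mean per group and 6 residual degrees of freedom. The spread is pooled over groups. The two-sided p-values were adjusted after Benjamini and Hochberg over all tested genes, separately in each comparison, and "called" means an adjusted p below 0.05. The number of arrays limits the precision.

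The members, the 12 lists and the rule for naming genes were chosen with earlier results of these data known, and some motifs after the promoter windows were seen. By that rule, up to 4 genes per list with the smallest p without p53 were named. So were the 3 genes most alike to each member whose group means span over 1, with predicted-gene, Riken and accession symbols left out. Alternatives were no filter, further quantile normalization, an intensity trend, the replicate number as a block, the 13th array added to either group, the mean over probe sets and each array left out.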

Additional observations from a re-analysis of the deposited data

Results flagged for a closer look

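The array with conflicting labels was used in no main comparison. On it, Mmp14 had a log2 value of 8.29 and Cd44 one of 9.14, both above all 6 CKIalpha Het arrays, whose highest values were 6.61 and 6.87. Mmp14 was above both CKIalpha KO arrays (7.12 and 7.78) and below both CKIalpha KO/p53 KO arrays (8.53 and 8.66). Cd44 was above both CKIalpha KO arrays (7.05 and 8.91) and between the CKIalpha KO/p53 KO arrays (9.56 and 9.05). Vim was at 7.50 on the same array, within the range of the Het arrays (7.17 to 8.68). This Vim value was below both arrays of CKIalpha KO/p53 KO (8.79 and 9.06), the group the title gives, and stood beside 7.82 and 7.50 in CKIalpha KO. Which genotype the array holds was not tested.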

How the results depend on the processing

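The 8 tested members were followed through 19 alternatives in 12 comparisons, 1824 values in all. Of these, 1789 kept their side of the threshold with no counted change of sign. A change of sign was counted only where the value was called or lay more than 1 SE from 0. Among the 1789, 80 changed sign nearer to 0. The 3 counted changes came from leaving out 1 array: Fn1 in CKIalpha KO against CKIalpha Het ranged from -3.54 to 0.12, Fn1 in CKIalpha KO/p21 KO against CKIalpha Het/p21 KO from -2.74 to 0.14 and Snai1 in CKIalpha Het/p53 KO against CKIalpha Het from -0.59 to 0.05. The number of members called without p21 was 1 with an intensity trend (Cd44) and 0 to 3 when each array was left out, with 3 without CKIalpha KO/p21 KO replicate 1. Without p53 it was 0 to 3, with 0 without either CKIalpha Het/p53 KO array or CKIalpha KO/p53 KO replicate 2 and 1 without CKIalpha KO/p53 KO replicate 1. It was 0 to 2 in CKIalpha KO/p53 KO against CKIalpha KO and 0 to 1 in CKIalpha KO/p53 KO against CKIalpha KO/p21 KO. Without CKIalpha KO/p21 KO replicate 1, the differences without p21 were 1.99 for Mmp14, 3.46 for Cd44 and -1.66 for Vim. Vim was thus lower there, whereas Mmp14 and Cd44 were higher. A left-out array leaves a group with 1 array, which is assumed to vary like the other groups.

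The labels do not say that a replicate number is shared across groups. Over 15 pairs of groups, same-numbered arrays had correlations of their deviations from -0.16 to 0.25 (median 0.07), with 5 of 15 above 0.1, so the numbers were not taken as pairs, although Xist was low on every array numbered 1 and high on every array numbered 2. With the replicate block in the fit, 2 members were called without p53 in place of 3, since Vim had an adjusted p of 0.0601. The block changed no other call of a member. Each member has 1 probe set, so averaging probe sets left its values as they were.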
